A study of Rattus norvegicus with 6 samples.

Results

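The miR-106a-363 and miR-106b-25 clusters are a pair of paralogues of the miR-17-92 cluster, and 7 assays of their guide strands were read in left ventricle of diabetic and non-diabetic rats. They were chosen by exact assay name, without passenger-strand assays, and made up 7 of 584 miRNA assays. Assays for miR-106a, miR-18b, miR-20b and miR-363 stand for the first cluster, and those for miR-106b, miR-93 and miR-25 for the second. The samples were 3 left ventricles of OLETF rats, labelled diabetes, and 3 of LETO rats, labelled as healthy controls. OLETF is an inbred strain that becomes obese and develops type 2 diabetes, and LETO is the related strain kept as its control, so strain, obesity and diabetes cannot be told apart. Rats of both groups were anesthetized and ventilated before the heart was taken. Age and treatment of the rats are not given in the sources used here. The labels name a tissue sample for each replicate and do not say how litters or days were arranged, so p-values measure only the spread between these samples. Replicate numbers follow the sample titles, and the LETO columns of the deposited data carry other numbers.

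MicroRNAs are short RNAs that pair with messenger RNAs mainly through their seed, bases 2 to 8, and lower the output of those messages. The miR-17 family, which includes miR-106a, miR-20b, miR-106b and miR-93, is known for favouring cell-cycle entry by restraining inhibitors such as p21. Mouse embryos that lack both miR-17-92 and miR-106b-25 die with heart defects. In adult heart, miR-25 has been studied as a repressor of the sarcoplasmic calcium pump SERCA2a, and miR-363 carries the same seed.

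The mature sequences in the RefSeq rat miRNA table (build GRCr8) are printed because the seed divides the members across the cluster border. They run 5′ to 3′ with the seed in capitals.

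rno-miR-106b-5p: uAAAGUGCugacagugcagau
rno-miR-93-5p: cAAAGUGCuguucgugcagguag
rno-miR-20b-5p: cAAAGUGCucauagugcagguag
rno-miR-17-5p, from the gene Mir106a: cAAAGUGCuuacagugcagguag
rno-miR-25-3p: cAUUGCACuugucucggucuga
rno-miR-363-3p: aAUUGCACgguauccaucugu

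Of the 7 members, 5 had a mature sequence of their own name there, and no entry for Mir18b was matched. The first 4 sequences share the seed AAAGUGC with miR-20a of the miR-17-92 cluster, and the last pair shares AUUGCAC with miR-92a, miR-92b and miR-32. Beyond the seed, miR-20b differs from miR-17 at 2 of 23 positions (U10C and C12U, counted from the 5′ end, with the miR-17 base first), and miR-93 differs from miR-17 at 4 (U10G, A11U, C12U and A13C). Compared with miR-92a position by position from the 5′ end, with no gaps allowed, miR-25 is identical at 18 of 21 positions and miR-363 at 10. A gap could bring more bases of miR-363 into register, which was not tried. The mature RNAs of miR-106b, miR-93 and miR-25 lie at chr12:22156652-22157123 on the minus strand, within the limits of Mcm7, the gene of a replication helicase subunit. Those of Mir106a, Mir20b, Mir19b2, Mir92a2 and Mir363 lie at chrX:137342788-137343637, also on the minus strand.

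The rat gene called Mir106a bears on how the miR-106a assay can be read, and its 78-base hairpin is shown with the mature 5′ arm in capitals (GRCr8, chrX:137343570-137343647, minus strand).

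Mir106a hairpin: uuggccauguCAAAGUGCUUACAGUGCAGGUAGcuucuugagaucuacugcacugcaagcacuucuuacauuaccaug

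RefSeq names the mature product of this rat gene rno-miR-17-5p, and it is identical to the product of Mir17 in the miR-17-92 cluster on chromosome 15. The miR-106a assay carries a mouse name, as every member assay does, and the mouse sequences were not used here. Likewise, miR-19b and miR-92a have the same mature sequence from both clusters, so their assays cannot tell the loci apart.

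Levels came from stem-loop RT-qPCR on rodent miRNA cards, in threshold cycles (Ct). The more RNA a well holds, the earlier its threshold is reached and the lower its Ct, by 1 cycle for each log2 unit where amplification is perfect. A Ct of 35 or more was treated as not measured. All 7 members stood on the first card (card A) in a single well per sample. The number of assays measured ran from 202 to 292 in LETO and from 197 to 228 in OLETF, and LETO replicate 3 was the highest of all. Heart tissue markers were present: all 7 assays of cardiomyocyte miRNAs and both of endothelial miR-126 were measured in every sample, and 0 samples gave a value for miR-122 of liver, miR-124 of neurons or miR-375 of islets. The other neuronal marker, miR-9, was measured in all 6 samples, at -15.34 to -10.21 log2 units relative to U6. The single-well SD, from 189 pairs of card B wells with both Ct values under 35, was 0.486 cycles. No such estimate could be made for the single wells of card A.

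The assays standing for the clusters differed first in how many of them were measured. Every member of miR-106b-25 was measured in all 6 samples, 3 of 3 assays. Of miR-106a-363, miR-106a was measured in 6 samples, miR-20b in 5, and miR-18b and miR-363 in 0. No rat entry for Mir18b was matched, and RefSeq names the product of rat Mir106a rno-miR-17-5p. The counts therefore describe assays. Every member assay carries a mouse name, and whether each reads the rat cluster was not tested. For comparison, all samples measured 27.7% of the 584 assays and no sample measured 47.1% of them. miR-18b and miR-363 had 0 determined wells of 6 each, so a value for them is missing at any Ct limit. The number of members measured was 5 in each sample except OLETF replicate 2, where it was 4 because the miR-20b well had a Ct of 35.34. Detection thus did not divide OLETF from LETO. The authors' deposited table gave miR-18b and miR-363 a ratio of OLETF over LETO of 0.841 each. It gave the same 0.841 to each of the 120 card A assays with no determined well, so that value carries no information on either miRNA.

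Among the measured members, miR-106a had the lowest mean Ct, 26.9, which ranked 48 of the 162 assays measured in all samples. miR-93 followed at 28.6 (rank 75), miR-106b at 29.2 (rank 85) and miR-25 at 30.6 (rank 121). miR-20b came up latest, with a Ct from 30.2 to 35.3. Assays differ in efficiency, so this is an order of Ct and not of RNA copies. Within a sample, miR-106a came up before miR-93 by 0.84 to 2.04 cycles, and miR-93 before miR-106b by 0.098 to 1.23 cycles. The order miR-106a, miR-93, miR-106b, miR-25 held in all 6 samples, though some gaps were smaller than the card B SD of a single well. These were miR-106b to miR-25 in LETO replicate 1 (0.099 cycles) and miR-93 to miR-106b in LETO replicate 3 (0.37) and OLETF replicates 1 (0.098) and 2 (0.24). A gap holds the noise of both wells, so somewhat larger gaps, such as miR-93 to miR-106b in LETO replicate 2 (0.55), are not firm either.

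No member passed the test of OLETF against LETO hearts. With the U6 small nuclear RNA of the same card as reference, as in the study, 0 of the 5 tested members passed an adjusted p of 0.05 (limma; 0.0% of the 193 assays tested passed, smallest adjusted p = 0.997). At an unadjusted p under 0.05 there were also 0 members, against 1.04% of all assays, 2 in number (1 with the ordinary test). Of the 5 tested members, 4 lay lower in OLETF and 1 higher. As 80.8% of all tested assays lay lower with this reference, that count is near the background. The members' median difference was -0.46 log2 units, beside -0.49 for all tested assays of card A and -0.60 for all tested assays. Testing required a measured value in 2 or more of the 3 samples in both groups, and miR-18b and miR-363 did not qualify. Of the 4 members measured in all samples, 0 had groups that did not overlap, with U6 (0.0% of the 162 such assays) or with the median of the card (13.6%).

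The miR-106a assay had the most signal of those that stand for the X-linked cluster. How far that signal comes from the X-linked gene was not tested, because the rat Mir106a and Mir17 products are identical. The assay lay at -8.34, -10.11 and -7.37 log2 units relative to U6 in LETO replicates 1, 2 and 3. In the OLETF replicates it lay at -9.82, -9.70 and -7.67. The groups overlapped, and replicate 3 was highest in each. The means were -8.61 ± 1.39 and -9.06 ± 1.21 (SD, n = 3 each), a difference of -0.46 (SE 1.38, 95% interval -3.16 to 2.25, limma adjusted p = 0.997, exact permutation p = 0.8). The interval holds changes of several cycles in both directions, so the U6 values do not show that the groups were alike.

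Of the miR-106b-25 cluster, miR-106b itself, a miR-17 family member, lay at -11.58, -12.69 and -8.59 relative to U6 in LETO and at -11.86, -11.85 and -10.47 in OLETF. LETO replicate 3 stood 2.99 log2 units above the next LETO sample, and all OLETF values lay inside the LETO range. The difference was -0.44 (SE 1.38, 95% interval -3.14 to 2.27, limma adjusted p = 0.997, exact permutation p = 0.8). miR-93, the middle member and also of the miR-17 family, lay at -10.35, -12.15 and -8.21 in LETO and at -11.76, -11.61 and -9.37 in OLETF. Again the OLETF values fell within those of LETO, and the difference was -0.68 (SE 1.38, 95% interval -3.38 to 2.03, limma adjusted p = 0.997, exact permutation p = 0.7). miR-25, which has the miR-92a seed, lay at -11.68, -14.36 and -10.72 in LETO and at -13.22, -13.22 and -12.12 in OLETF. Here too LETO enclosed OLETF, with a difference of -0.60 (SE 1.38, 95% interval -3.31 to 2.10, limma adjusted p = 0.997, exact permutation p = 0.6). For 3 against 3 samples the exact test allows no p below 0.1.

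The spread of these values was shared with the rest of the card. The Ct of the median assay of card A exceeded that of U6 by 10.82, 12.06 and 8.61 cycles in the LETO replicates and by 11.29, 11.07 and 9.74 in the OLETF replicates. Replicate 3 of each group thus had the smallest gap, and these are the samples in which every measured member was highest within its group. Relative to U6 the range over all samples was 2.74 log2 units for miR-106a, 4.11 for miR-106b, 3.93 for miR-93 and 3.65 for miR-25. Relative to the median of the card, taken over assays measured in all samples, the ranges were 1.24, 0.81, 1.01 and 1.52.

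With that median as reference the members again did not separate the groups. miR-93 lay at 0.47, -0.09 and 0.40 in LETO and at -0.47, -0.55 and 0.37 in OLETF, higher in OLETF in only 1 of 9 pairs of samples. OLETF replicate 3 overlapped LETO, and the difference was -0.47 (SE 0.405, 95% interval -1.40 to 0.45, limma adjusted p = 0.638, exact permutation p = 0.2). miR-106b lay at -0.76, -0.64 and 0.023 in LETO and at -0.57, -0.79 and -0.73 in OLETF. The OLETF samples lay within 0.22 of each other, next to LETO replicates 1 and 2, and the difference of -0.24 (SE 0.373, limma adjusted p = 0.803) came down to 0.0032 without LETO replicate 3. miR-25 lay at -0.86, -2.31 and -2.11 in LETO and at -1.94, -2.16 and -2.38 in OLETF. LETO replicate 1 alone stood above the others, and the difference of -0.40 (SE 0.462, limma adjusted p = 0.724) turned to 0.10 without it. miR-106a lay at 2.48, 1.95 and 1.24 in LETO and at 1.47, 1.36 and 2.07 in OLETF. Its difference was -0.26 (SE 0.439, limma adjusted p = 0.811), or 0.09 without LETO replicate 1, -0.58 without LETO replicate 3 and -0.51 without OLETF replicate 3. Leaving out OLETF replicate 3 also moved miR-93, from -0.47 to -0.80 (SE 0.428, limma adjusted p = 0.39). With this reference 4 of 5 members lay lower in OLETF, where 67.4% of all tested assays did, and 0 passed (0.0% of 193). At an unadjusted p under 0.05 there were 0 members, against 6.22% of all assays.

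**Figure D1:**
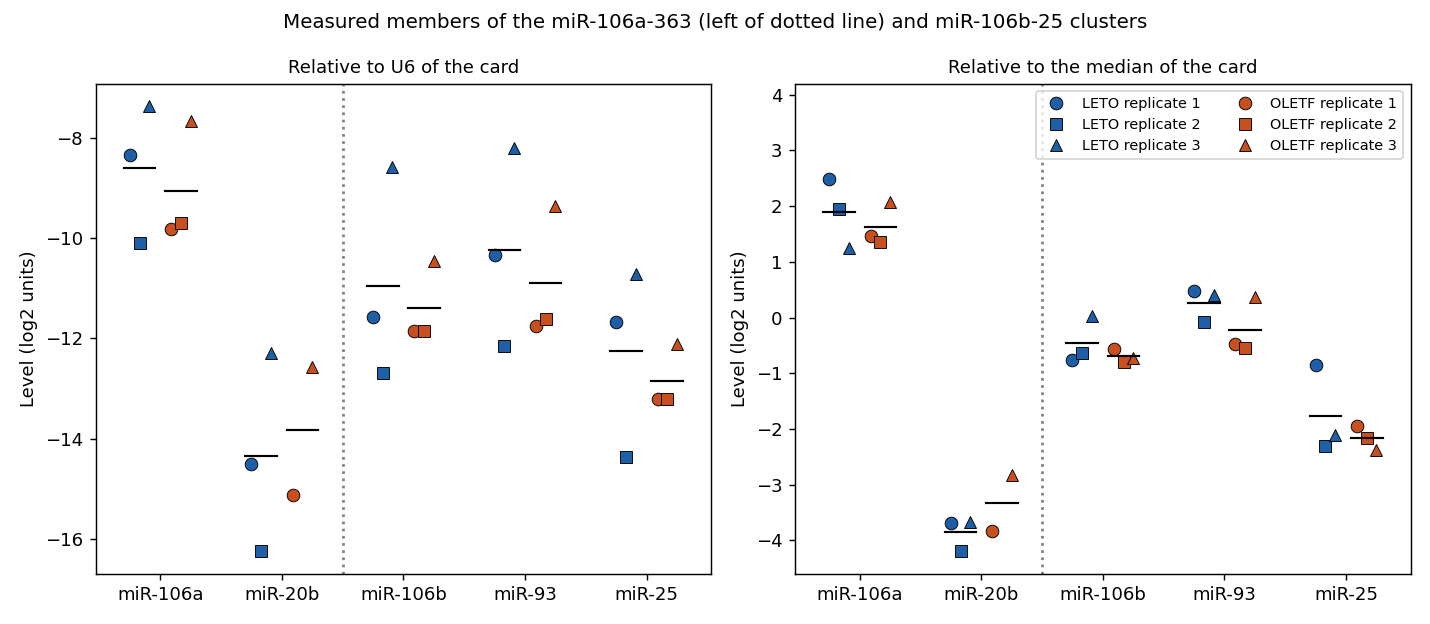
Levels of the 5 measured members in each sample, in log2 units relative to U6 of the card (left) and to the median of the card (right). Points are single samples, horizontal bars are group means, and the dotted line divides the clusters. Relative to U6, replicate 3 of each group is the highest for every member, and relative to the card median the samples of a member lie within 1.52 log2 units.

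Replicate 3 was set against replicates 1 and 2, a split chosen after seeing the data. Relative to the card median within replicates 1 and 2 alone, miR-106a differed by -0.85 (SE 0.307), miR-93 by -0.75 (SE 0.31), miR-25 by -0.51 (SE 0.502) and miR-106b by -0.028 (SE 0.283). None passed, with a limma adjusted p of 0.262 for miR-106a, 0.263 for miR-93, 0.572 for miR-25 and 0.968 for miR-106b. Between the single samples of replicate 3 the sign was the other way for miR-106a, at 1.24 in LETO and 2.07 in OLETF, and miR-93 was nearly level at 0.40 and 0.37. With so few samples, the difference between replicates in these values was not tested. With U6 as reference within replicates 1 and 2, miR-106a differed by -0.54, miR-93 by -0.44, miR-25 by -0.20 and miR-106b by 0.28 (SE 1.03 and limma adjusted p = 0.994 for each).

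For 4 of the 5 tested members, the sign of the group difference was not the same with every reference, while miR-20b lay above 0 with each reference it was fitted with at the Ct limit of 35. With U6 replaced by the remaining small RNAs of card A, which were Y1, U87 and snoRNA135, miR-106a differed by 0.39, miR-106b by 0.41, miR-93 by 0.18 and miR-25 by 0.25, so 0 of 5 members lay lower, where 24.9% of all assays did. Each of these 4 differences was smaller than its SE, and miR-20b differed by 0.93 (SE 0.635, limma adjusted p = 0.976). With the whole-array median, 2 of 5 lay lower, miR-93 at -0.19 and miR-25 at -0.12, where 62.2% of all assays did. With each of the 4 references described, 0 members passed and 0.0% of the 193 assays did. At an unadjusted p under 0.05 there were 0 members with the small RNA controls (2.59% of all assays) and 0 with the whole-array median (8.81%). Without LETO replicate 3 and with U6, miR-106b differed by 0.74, miR-93 by 0.34, miR-25 by 0.17 and miR-106a by 0.16, and the median of all assays moved from -0.60 to 0.38.

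**Figure D2:**
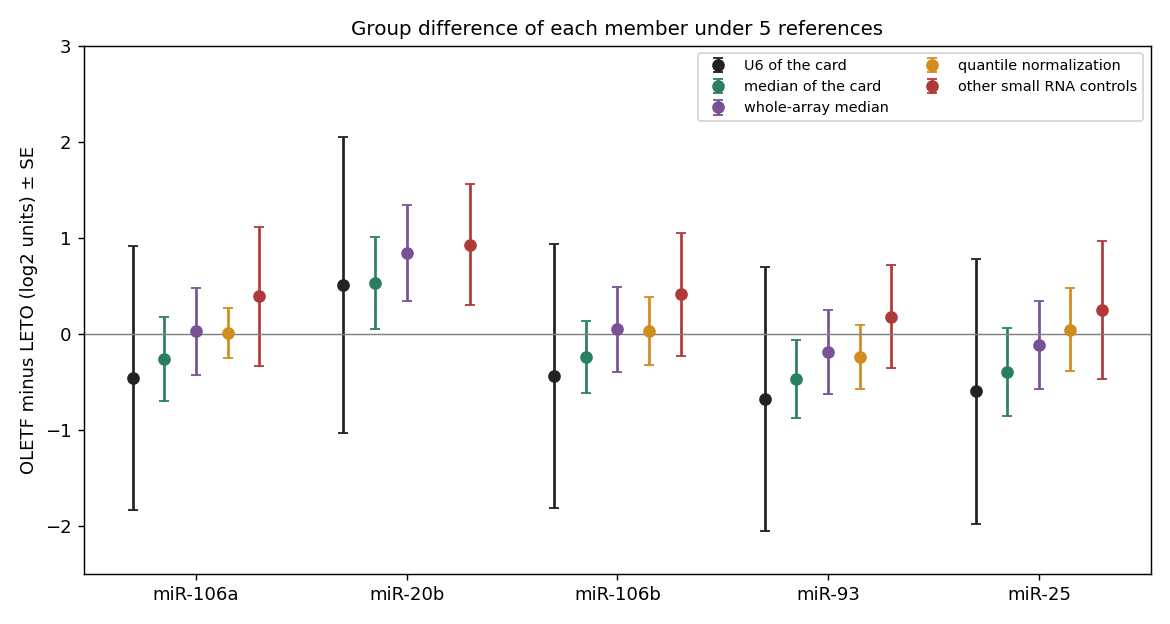
Difference of OLETF minus LETO for each measured member under 5 references, in log2 units; points are limma estimates and bars their SE. Estimates for miR-106a, miR-106b, miR-93 and miR-25 lie on both sides of 0 depending on the reference, miR-20b lies above 0 with the references shown, and quantile normalization has no miR-20b value because that used only assays measured in all samples.

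miR-20b was the member with the least certain value. Relative to U6 it lay at -14.51, -16.25 and -12.29 in LETO and at -15.12 and -12.57 in OLETF replicates 1 and 3, with OLETF replicate 2 not measured. The OLETF samples fell within the LETO range, and the difference was 0.51 (SE 1.54, 95% interval -2.51 to 3.53, limma adjusted p = 0.997, exact permutation p = 0.8). That sign rested on leaving out the sample with the latest Ct. When its Ct of 35.34 was kept, with a limit of 38, the difference was -0.68 (SE 1.45, limma adjusted p = 0.992), and in the authors' deposited table, which has no such limit, the ratio was 0.625.

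A further assay gave a reading of the same miRNA. The assay named for rat miR-20b-5p stood on card B in a pair of wells per sample and is no member by the exact name. Its wells had Ct values of 32.79 and 31.67, 32.69 and 34.33, and 30.18 and 30.17 in LETO replicates 1, 2 and 3. In OLETF they were 38.18 and 35.52, 32.87 and 33.39, and 31.13 and 31.82. The low sample was therefore OLETF replicate 1 on card B and OLETF replicate 2 on card A. Each assay measured the sample that the other did not. On card B the difference relative to U6 was -0.22 (SE 1.54, limma adjusted p = 0.997), from LETO replicates 1 to 3 and OLETF replicates 2 and 3. The authors' deposited table listed ratios of 0.201 and 0.373 for these wells, which include the late wells of OLETF replicate 1. The assays of the other arm, rat miR-20b-3p on card A and miR-20b* on card B, were measured in 2 LETO samples and in 0 samples.

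**Figure D3:**
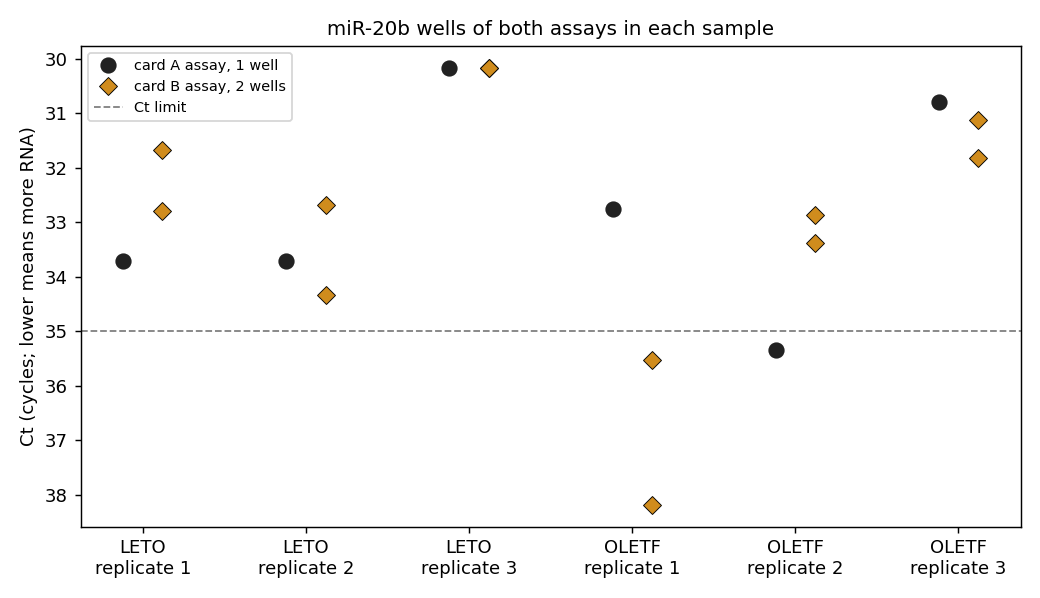
Ct of every miR-20b well in each sample, from the card A assay (1 well) and the card B assay (2 wells), with the axis turned so that more RNA is higher; the dashed line is the Ct limit of 35. The card A well falls past the limit in OLETF replicate 2 and both card B wells do so in OLETF replicate 1.

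Ct differences between members of the same sample need no reference, and 10 pairs were compared between the groups. As no exact p below 0.1 is possible with these numbers of samples, no pair could pass 0.05, and the pairs are described by their values, with p-values adjusted over the 10 pairs of 0.833 or more. Within the miR-106b-25 cluster, miR-106b minus miR-93 was 1.23, 0.55 and 0.37 cycles in LETO and 0.10, 0.24 and 1.10 in OLETF, with means of 0.72 ± 0.45 and 0.48 ± 0.54 (SD, n = 3 each; exact permutation p = 0.5). The groups overlapped, and over all 6 samples the SD of the difference was 0.46 cycles. miR-93 minus miR-25 was -2.02 ± 0.61 in LETO and -1.94 ± 0.70 in OLETF, and miR-106b minus miR-25 was -1.30 ± 1.07 and -1.46 ± 0.16 (exact permutation p = 1 for each). The Ct of miR-106b alone ranged over 4.31 cycles, against 1.13 for its difference to miR-93. The range was 1.42 for miR-93 minus miR-25 and 2.03 for miR-106b minus miR-25. Across the clusters, miR-106a minus miR-25, miR-93 and miR-106b ranged over 1.11, 1.19 and 2.02 cycles, so a narrow range was not particular to this cluster.

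Between the clusters, miR-106a minus miR-93 was -1.63 ± 0.68 in LETO and -1.85 ± 0.13 in OLETF (n = 3 each, exact permutation p = 1). Only miR-20b minus miR-93 did not overlap between the groups, of the 10 pairs. It was 4.16, 4.10 and 4.07 cycles in LETO and 3.36 and 3.20 in OLETF replicates 1 and 3, a difference of -0.84 (exact permutation p = 0.1, the smallest that 3 against 2 samples allow; adjusted p = 0.833). With the late miR-20b well of OLETF replicate 2 kept, that sample had 5.79 cycles and the group difference became 0.00094 (exact permutation p = 1). The mean Ct of miR-106a and miR-20b minus that of the miR-106b-25 members was 0.22, 0.11 and 0.66 cycles in LETO and 0.19 and -0.53 in OLETF replicates 1 and 3. The groups overlapped, and with the late miR-20b well kept OLETF replicate 2 had 1.32.

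**Figure D4:**
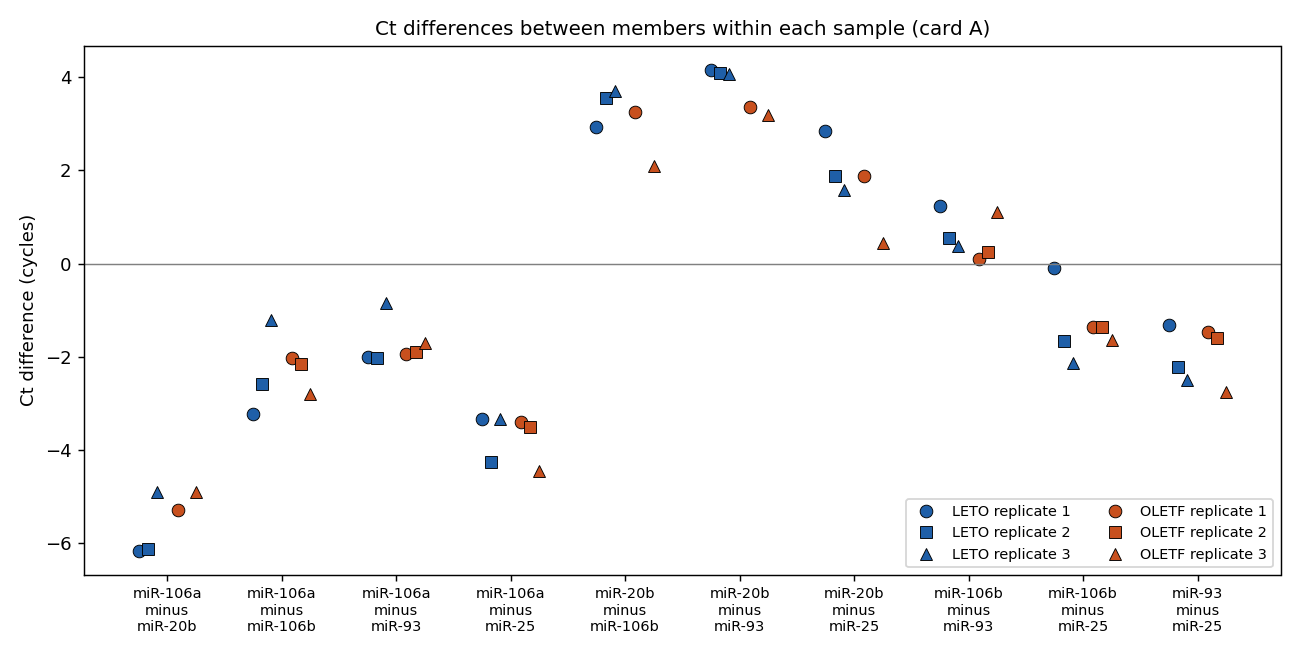
Ct differences between 2 members of the same sample, for all 10 pairs of measured members on card A, in cycles; each point is 1 sample. Groups overlap in each pair except miR-20b minus miR-93, where OLETF replicate 2 has no value because its miR-20b well was past the Ct limit.

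Passenger strands gave a second readout of the same hairpins. miR-93*, on card B, was measured in all 6 samples, at -11.68, -14.53 and -9.64 relative to U6 in LETO and -13.35, -12.59 and -10.84 in OLETF. With U6, LETO replicate 3 was highest and replicate 2 lowest for both strands. Relative to the median of its own card, LETO replicate 1 was highest for miR-93 (0.47) and OLETF replicate 2 for miR-93* (0.57). With that reference OLETF was higher in 1 of 9 pairs of samples for miR-93 and in 8 of 9 for miR-93*. The group difference of miR-93* was -0.31 (SE 1.38, limma adjusted p = 0.997) with U6 and 0.46 (SE 0.372, limma adjusted p = 0.638) with the median of its card. Against miR-93 itself, each relative to the U6 of its card, miR-93* came 1.71 ± 0.58 cycles later in LETO and 1.35 ± 0.32 in OLETF (n = 3 each, exact permutation p = 0.6). miR-106b* was measured in LETO replicate 3 alone, and miR-25* and miR-363* had 0 determined wells.

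The paralogues of the miR-17-92 cluster were measured on the same card. Of 6 members, 5 were tested, and 0 passed (limma, 0.0% of 193 assays). With U6, 4 lay lower in OLETF, with a median of -0.69 beside -0.60 for all assays, and with the card median 3 lay lower. miR-17, which has the mature sequence that RefSeq gives for both Mir17 and Mir106a, differed by 0.08 (SE 1.38, limma adjusted p = 0.997), and miR-18a was measured in LETO replicate 3 only. miR-19b, made from both miR-17-92 and the X-linked cluster, differed by -1.11 (SE 1.38) and miR-92a, also made from both, by -0.06 (SE 1.38; limma adjusted p = 0.997 for each). Among other miRNAs with the miR-25 seed, miR-32 was measured in 1 sample and miR-367 in 0.

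miR-106a came up later than miR-17 in every sample, by 1.19, 1.37 and 1.09 cycles in LETO and 1.92, 2.01 and 1.35 in OLETF. OLETF replicates 1 and 2 lay above all LETO samples and replicate 3 among them. The means were 1.22 ± 0.14 and 1.76 ± 0.36 (SD, n = 3 each; difference 0.54, exact permutation p = 0.2). How far the mouse-named miR-106a assay reads rat miR-17 was not tested. By seed partner, miR-20b came 4.93 ± 0.39 cycles after miR-20a in LETO and 4.35 ± 0.07 in OLETF (n = 3 and 2, exact permutation p = 0.2). With the late miR-20b well of OLETF replicate 2 kept, the OLETF mean was 4.92 ± 0.99 and the group difference -0.011 (n = 3 each, exact permutation p = 1). miR-25 came 2.35 ± 1.08 and 2.90 ± 0.54 after miR-92a (n = 3 each, exact permutation p = 0.5). In LETO replicate 1 that last gap was 1.11 cycles, while in the other 5 samples it ran from 2.29 to 3.32.

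Outside the family, the assays whose level relative to the card median ran most like the mean of miR-106b, miR-93 and miR-25 were miR-27b (Pearson r = 0.99, Spearman rho = 0.94), rat miR-345-3p (0.93 and 0.94) and miR-27a (0.93 and 0.89), as a description over 6 samples and out of 158 assays. Without the 2 samples farthest from the median, LETO replicates 1 and 3, Pearson r was 0.97, 0.89 and 0.80 over 4 samples. The cluster mean itself ran only from -1.16 to -0.38. miRNAs of the miR-106b-25 cluster are also known to be abundant in blood and dividing cells. The leukocyte marker list, with 5 of 6 assays measured in all samples, had a summed level relative to U6 from -3.61 to -2.0 in LETO and from -3.04 to -2.13 in OLETF, and the erythroid list, with 1 of 2, from -6.37 to -4.69 and from -5.51 to -4.57. Both overlapped between the groups, and their part in the members' levels was not tested. In whole tissue, fewer cells of a type and less RNA per cell cannot be told apart.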

How the data were processed

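Deposited Ct values of 768 wells per sample in 2 blocks of 384 rows (cards A and B) were used, made by TaqMan RT-qPCR with U6 as control, per the labels' protocols. The authors' normalized table held delta Ct, a log2 quantity with reversed sign, in which an undetermined well counts as 40 cycles. The last deposited table of the authors held the ratio of OLETF over LETO. Instrument baseline and threshold settings are not given in the sources used here.

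Each assay was given the mean Ct of its determined wells, which counted as missing from 35 upwards. Level was U6 Ct of the card minus Ct. Assays with values in 2 or more of the 3 samples in both groups (193 of 584) were compared with limma 3.58.1 in R 4.3.3, with Benjamini-Hochberg adjustment over all of them. The fit was tested on simulated data with independent noise, which does not show what it could detect at the spread of these samples. Single values had two-sided exact permutation tests. The text names all 7 members, their passenger strands, miR-17-92, further miRNAs with the miR-25 seed, and the 3 assays most like the miR-106b-25 mean. miR-92b had no assay matched. Members and lists were chosen with earlier results of these data known. Alternatives covered references, Ct limits, missing values, blocks, weights and samples left out.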

Additional observations from a re-analysis of the deposited data

How the results depend on the processing

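With 3 samples a group and U6, intervals spanned over 5 log2 units per member, so moderate differences were not detectable. The count of members at a limma adjusted p under 0.05 was 0 in all 31 alternatives (smallest adjusted p over members 0.178), as in the main comparison. Array weights called 30 of 193 assays (15.5%) and 0 members. This fit moved miR-106a to -1.22, miR-93 to -1.19 and miR-25 to -1.31 (limma adjusted p = 0.206, 0.214 and 0.178). Its LETO side was carried by replicate 1, whose weight was 3.02, while replicate 2 had 0.329 and replicate 3 had 0.237. Among OLETF samples, replicate 3 counted little (0.354) beside replicate 1 (3.25) and replicate 2 (3.7). The fit thus mostly compared LETO replicate 1 with OLETF replicates 1 and 2. The per-card median combined with samples left out or blocks, and replicates 1 and 2 alone, were chosen after seeing the data. Equal replicate numbers come from the sample titles alone, and the labels name no pairs or batches by them. Deviations from the group means were not shared by all equally numbered samples (correlations -0.088, 0.23 and 0.62), so these samples were not taken as pairs. For members measured in all 6 samples the replicate block cannot change the difference, as each replicate number holds 1 sample of each group. With U6 it lowered their SE from 1.38 to 0.808, and 0 members passed.

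The difference took the other sign in these cases, and the cause was not tested unless a sample left out names it. For miR-106a it was 0.028 with the whole-array median, 0.39 with other small RNA controls, 0.0089 with quantile normalization and 0.09 without LETO replicate 1 under the per-card median. For miR-106b it was 0.046, 0.41 and 0.032 under the first 3 of these, 0.0032 without LETO replicate 3 under the per-card median, and 0.28 within replicates 1 and 2. For miR-93 it was 0.18 and for miR-25 0.25 with other small RNA controls. For miR-25 it was also 0.043 with quantile normalization and 0.10 without LETO replicate 1 under the per-card median. For miR-20b it was -0.68 with the deposited normalized table, with a Ct limit of 38 and with no limit, -0.56 with missing values set to the limit, -0.44 with the replicate block and -0.34 with array weights. With U6 and 1 sample left out, differences ran from -1.21 to 0.16 for miR-106a, -1.31 to 0.74 for miR-106b, -1.63 to 0.34 for miR-93, -1.66 to 0.17 for miR-25 and -0.44 to 1.54 for miR-20b. There the sign also changed, without LETO replicate 3 for miR-106a, miR-106b, miR-93 and miR-25, and without LETO replicate 2 for miR-20b. With 1 sample left out and the group of 2, an assay had to be measured in both.

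The group difference in Ct of the measured miR-106a-363 assays, miR-106a among them, minus the miR-106b-25 assays was -0.50 cycles. It was -1.19 with a Ct limit of 32, which left 1 sample a group, and -0.0047 with a limit of 38 or none. It ran from -0.87 to -0.14 with 1 sample left out.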
